A study of Homo sapiens with 6 samples.

Results

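The translation initiation and elongation factors described here are the protein-coding genes of the table whose symbols start with EIF1 to EIF6, EEF1 or EEF2, together with the poly(A)-binding proteins PABPC1 and PABPC4 and their partners PAIP1 and PAIP2. EIF1AY, EEF2KMT and the eIF2 kinases (symbols starting with EIF2AK) were left out by the rule. This gave 66 of the 58174 genes of the table, of which 19799 are protein-coding. The rule used names only and no measured value.

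The samples were KNS42 cells, a glioblastoma-derived line. In the siMSI1 group (n = 3 libraries) the cells had received a pool of siRNAs against MSI1, and in the siC group (n = 3) a control siRNA. RNA was collected 72 h after transfection and sequenced as mRNA. MSI1 is an RNA-binding protein of neural stem cells, and the comparison addresses how mRNA levels differ once it is depleted. All libraries come from this cell line and from 1 pool of siRNAs, and no label says that the libraries of a group were separate cultures, so p-values measure the spread between these libraries, which may be technical.

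Initiation begins when eIF2, carrying GTP and the initiator tRNA, joins the small ribosomal subunit with eIF1, eIF1A, eIF3 and eIF5 to form the 43S complex. The cap-binding eIF4F complex, made of eIF4E, the scaffold eIF4G and the helicase eIF4A, recruits this complex to the mRNA, while eIF2B recharges eIF2 with GTP. During elongation eEF1A delivers aminoacyl-tRNAs, the eEF1B subunits recharge eEF1A, eEF2 moves the ribosome along and eIF5A helps at difficult stretches. Many mRNAs of ribosomal proteins and of some of these factors start with a C followed by a run of pyrimidines, the terminal oligopyrimidine (TOP) tract, through which mTORC1 and LARP1 regulate them.

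The first bases of the mRNAs are shown because they set the known TOP mRNAs apart from most other genes, and because factors that moved in opposite directions both carried such a start. Each line gives the 20 bases before and the 20 bases from the RefSeq transcription start (GRCh38.p14), 5′ to 3′ on the strand of the gene, with a tract in capitals. A tract was counted where the start itself was a C followed by at least 4 bases that were C or T. The EEF1A1 window lies at chr6:73521013-73521052 on the minus strand, that of EEF1B2 at chr2:206159875-206159914 on the plus strand, that of EEF2 at chr19:3985444-3985483 on the minus strand, that of EIF3F at chr11:7987317-7987356 on the plus strand and that of EIF4B at chr12:53006436-53006475 on the plus strand. The EIF2S3 window lies at chrX:24054936-24054975 on the plus strand, that of EIF4A2 at chr3:186783557-186783596 on the plus strand and that of EIF4G2 at chr11:10807977-10808016 on the minus strand. EIF4G2 holds no tract there, nor at its other RefSeq start, and EEF1B2 has a further start without a tract.
EEF1A1: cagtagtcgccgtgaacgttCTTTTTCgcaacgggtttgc
EEF1B2: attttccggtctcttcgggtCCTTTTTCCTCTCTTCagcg
EEF2: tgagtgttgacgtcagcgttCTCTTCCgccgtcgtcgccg
EIF3F: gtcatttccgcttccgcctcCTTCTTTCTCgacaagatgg
EIF4B: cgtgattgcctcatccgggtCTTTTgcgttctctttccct
EIF2S3: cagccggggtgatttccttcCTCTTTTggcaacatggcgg
EIF4A2: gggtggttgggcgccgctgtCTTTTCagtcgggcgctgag
EIF4G2: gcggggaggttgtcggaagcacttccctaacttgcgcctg

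The libraries held 14448513 to 18024080 reads on genes in siC and 13087025 to 14700593 in siMSI1. FPKM (fragments per kilobase of gene) were scaled to a library size that was 0.977 to 1.025 times these gene reads. Shares of gene reads given below are without this scaling. MSI1 stood at 63.7, 61.9 and 66.9 FPKM in siC and 12.1, 12.3 and 11.2 FPKM in siMSI1. Its siMSI1 mean was 18.5% of the siC mean (limma, log2 fold change -2.43, SE 0.0668, Benjamini-Hochberg adjusted p = 8.71e-06). Of the markers of the labelled glial origin, VIM, NES and SOX2 were present at 58.2 to 1056 FPKM in every library, GFAP was low (1.33 to 5.04 FPKM) and S100B and OLIG2 had no read. The markers PTPRC, CD68, PECAM1 and EPCAM, of blood, endothelium and epithelium, reached at most 16 reads in any library. Of the neuron markers, RBFOX3 had no read, TUBB3 lay at 1.52 to 1.95 FPKM and SYP at 8.07 to 13.6 FPKM. GFAP was higher (log2 fold change 1.46, adjusted p = 0.000905) and SYP lower (-0.53, adjusted p = 0.00433) in siMSI1 by the same limma fit. Of 12 interferon-stimulated genes, 10 could be tested and 1, OAS1, was higher (0.92, adjusted p = 0.00857). The part of these differences in the results on the factors was not tested.

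Nearly all factors were expressed. Of the 66, 60 had a mean of at least 1 FPKM, 49 of at least 10 FPKM and 7 of at least 100 FPKM. The most abundant by mean FPKM over the 6 libraries was EEF1A1 (1547 FPKM), followed by EEF2 (661), EIF5A (476.2), EIF4H (259.9) and EEF1B2 (220.0). FPKM is scaled to a length given per gene, such as 14067 bases for EIF4E and 1915 bases for EEF1B2. That length may differ from the length of the mRNA the cells made. Levels, ranks and shares compared between genes are therefore approximate, and hold only as far as reads could be assigned to the gene. EEF1A1, EEF2 and EIF5A alone held 53.7% to 54.3% of the summed FPKM of all members in siC and 55.0% to 55.9% in siMSI1. The plot of levels by library shows that the spread between factors was far wider than the spread between groups for any of them.

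**Figure D1:**
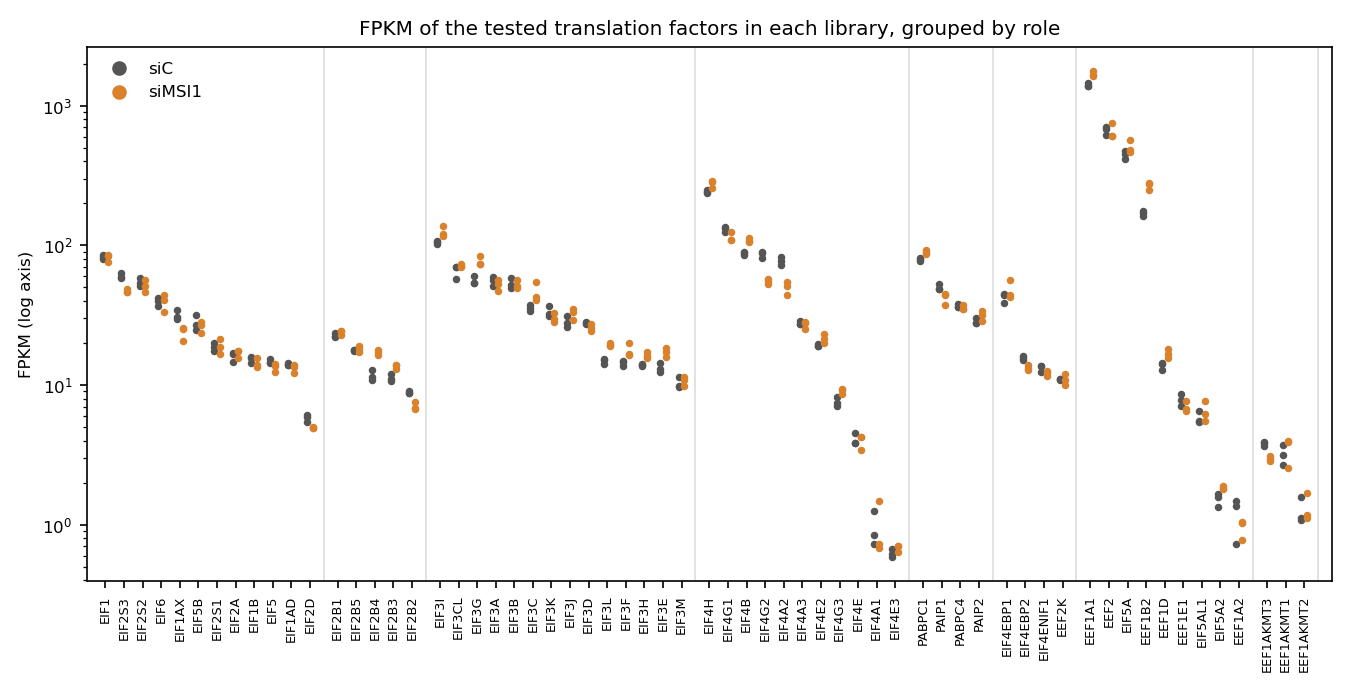
FPKM (log axis) of the 62 tested factors in each siC (grey) and siMSI1 (orange) library, ordered by siC mean within each role, with roles separated by vertical lines (from left to right: 43S complex and start codon, eIF2B, eIF3, eIF4F and helpers, poly(A)-binding proteins and partners, inhibitors and regulators, elongation factors, eEF1A methyltransferases). Levels ran from a mean of 0.653 FPKM (EIF4E3) to 1547 FPKM (EEF1A1).

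For 4 factors no test was made because their mean was under 0.5 FPKM. EEF1G, a structural subunit of the eEF1B complex that is abundant in most cells, was listed with no read in any library. According to the GENCODE 44 annotation, 99.7% of the exonic bases of EEF1G are shared with the gene AP002990.1 on the same strand, and reads that fit both genes may not have been counted for either. The value therefore says nothing on the level of EEF1G. The readthrough gene EEF1E1.BLOC1S5, which also had no read, shares 100% of its exonic bases on the same strand with other genes, and EIF4EBP3, with 0 to 2 reads, shares 73.2%, so the same holds for both. EIF4E1B had no read either, where 3 reads would be 0.0503 to 0.0694 FPKM, a limit that covers counting error only. EIF4A1, the main eIF4A helicase in most cells, was tested, but it shares 47.4% of its exonic bases with other genes on the same strand, held 51 to 116 reads, and 72.8% to 88.2% of the reads on EIF4A1 and its pseudogenes together were assigned to the pseudogenes. Its 0.728, 0.842 and 1.25 FPKM in siC and 1.48, 0.732 and 0.681 FPKM in siMSI1 are thus no measure of its level.

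Across the factors, 8 of the 62 tested passed the threshold of an adjusted p of 0.01. EIF4G2, EIF4A2 and EIF2S3 were lower in siMSI1, and EEF1B2, EIF2B4, EIF3G, EIF3L and EIF4B were higher. This is 12.9% of the tested factors, beside 11.0% of all 15069 tested genes and 17.2% of the 4644 protein-coding genes with a mean of at least 10 FPKM, so the share of factors called was near that of other genes. Without a filter on low genes, or with eBayes without trend and robust, EIF4G2 and EEF1B2 were called and the other 6 were not. In the lower direction 3 factors were called, beside 5.83% of all genes, and in the higher direction 5 were called, beside 5.15%. The median log2 fold change of the tested factors was 0.02, beside 0 for all tested genes. No factor changed by 1 or more on the log2 scale, and 37 of the 62 had a fold change under 0.2 in size. In a bulk measurement such as this, less RNA per cell and fewer cells with the RNA cannot be told apart.

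Without regard to a test, all 3 siMSI1 libraries lay above all 3 siC libraries for 19 factors and below them for 11. Of all tested genes 21.4% lay above and 21.5% below, 42.8% in all. The plot of fold changes by role shows where the factors with the larger differences stand.

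**Figure D2:**
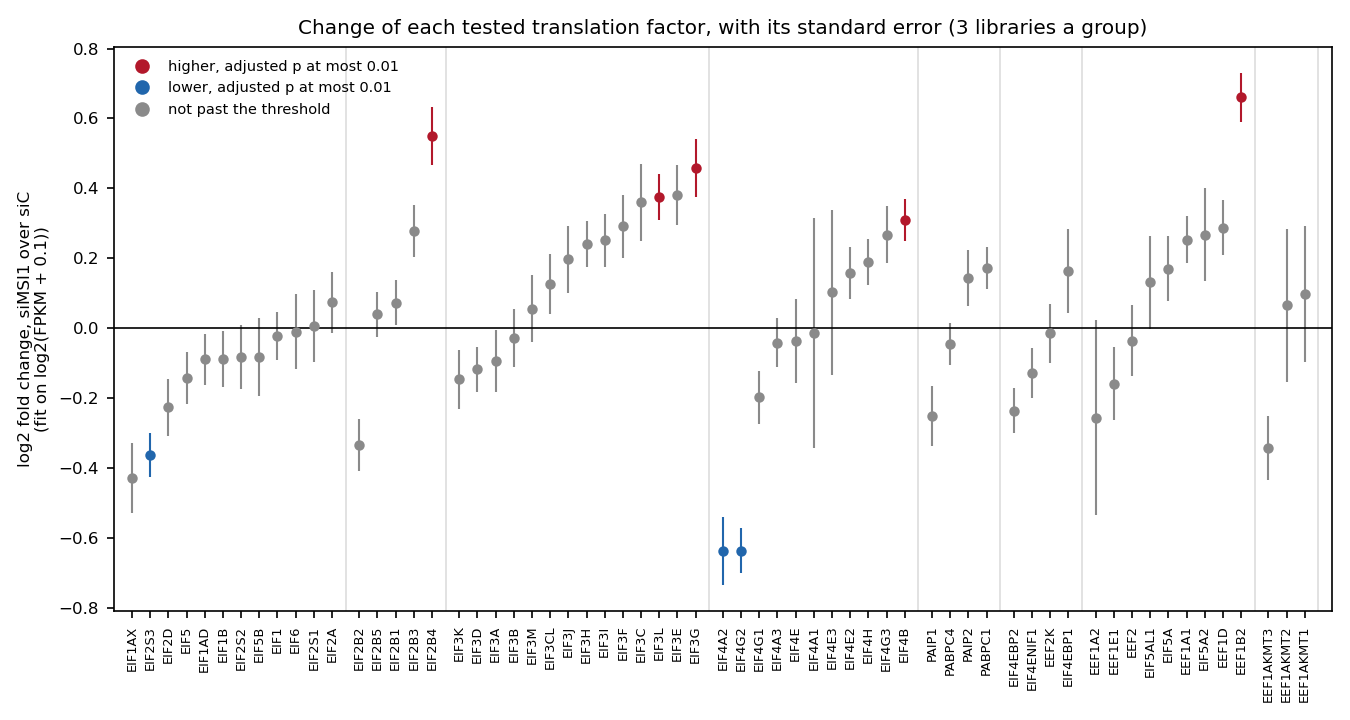
Log2 fold change of siMSI1 over siC for each tested factor, from the limma fit on log2(FPKM + 0.1), with bars for the standard error, grouped by role in the same order as in the plot of levels. Red and blue points mark the 5 higher and 3 lower factors with an adjusted p of at most 0.01, and grey points the other 54. The blue points of EIF4A2 and EIF4G2 are the lowest of all, and the red point of EEF1B2 is the highest.

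In the 43S complex and start codon group, 1 of 12 factors was lower and none was higher, beside 5.83% and 5.15% of all tested genes. Of the 12 fold changes, 10 were below 0, with a median of -0.09. The group is broader than the 43S complex: EIF6 (-0.01) and EIF1AD (-0.09), both counted here, are not parts of it. EIF2S3, which encodes the gamma subunit of eIF2 that binds GTP and the initiator tRNA (ENSG00000130741, chrX:24054946-24078810, plus strand, GENCODE 44 on GRCh38), stood at 59.4, 63.7 and 58.8 FPKM in siC and 46.1, 48.5 and 46.7 FPKM in siMSI1. The groups did not overlap, and the highest siMSI1 library lay well below the lowest siC library. EIF2S3 fell to 77.7% of the siC mean (limma, log2 fold change -0.36, SE 0.0626, adjusted p = 0.00565). Leaving out siMSI1 3 kept the call, while without any of the other 5 libraries in turn the adjusted p was 0.0144 to 0.03. The partner subunits of eIF2 did not pass the test: EIF2S1 (alpha, the subunit phosphorylated in the integrated stress response) had a log2 fold change of 0.01 (SE 0.103) and EIF2S2 (beta) one of -0.08 (SE 0.0905), and for both the groups overlapped. Whether EIF2S3 differs from these subunits in its response was not tested.

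EIF1AX, which encodes eIF1A and like EIF2S3 is X-linked, was the factor of this group with the largest difference, at 30.9, 34.7 and 29.9 FPKM in siC and 25.04, 25.4 and 20.6 FPKM in siMSI1. The groups did not overlap, yet it missed the threshold (limma, -0.43, SE 0.101, adjusted p = 0.0188). Its processed pseudogene EIF1AXP1, with which it can share reads, stood at 31.0 FPKM in siC and 24.0 FPKM in siMSI1 on average. EIF2D and EIF5 were also below siC in every siMSI1 library, with log2 fold changes of -0.23 and -0.14 that did not pass. EIF1, which guards the fidelity of start codon choice, was at 85.4, 82.6 and 80.1 FPKM in siC and 75.9, 85.2 and 83.4 FPKM in siMSI1 (-0.02, SE 0.0685), and its paralog EIF1B was at 14.5, 15.8 and 15.5 FPKM and 13.4, 15.7 and 14.0 FPKM (-0.09, SE 0.0798), both with overlapping groups.

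Of the 5 subunits of eIF2B, the exchange factor of eIF2, 1 was higher and none was lower, beside 5.15% and 5.83% of all tested genes. EIF2B4, the delta subunit of the regulatory core (ENSG00000115211, chr2:27364352-27370338, minus strand), stood at 11.5, 10.8 and 12.9 FPKM in siC and 17.2, 16.4 and 17.9 FPKM in siMSI1. All 3 siMSI1 libraries were above the siC libraries, with a clear gap. EIF2B4 rose to 146% of the siC mean (limma, 0.55, SE 0.0821, adjusted p = 0.00314). The call was lost without siC 1, siC 2 or siMSI1 1 (adjusted p 0.0196, 0.0117 and 0.0141).

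EIF2B2, the beta subunit of the same core, lay in the other direction, at 8.84, 8.75 and 9.13 FPKM in siC and 6.79, 6.82 and 7.52 FPKM in siMSI1. Its groups did not overlap, but it did not pass (limma, -0.34, SE 0.0744, adjusted p = 0.0152). The catalytic gamma subunit EIF2B3 stood in the direction of EIF2B4 (log2 fold change 0.28, adjusted p = 0.0298, not past the threshold), and EIF2B1 (alpha) and EIF2B5 (the catalytic epsilon subunit) were within 0.1 of 0.

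Of the 14 genes of eIF3, the scaffold that holds the 43S complex together, 2 were higher, beside 5.15% of all tested genes, and none was lower. The median log2 fold change was 0.22, 10 of 14 were above 0, and in 8 of 14 all siMSI1 libraries exceeded all siC libraries, beside 21.4% of all tested genes. EIF3G, an RNA-binding subunit (ENSG00000130811, chr19:10115014-10119918, minus strand), stood at 53.7, 53.8 and 60.6 FPKM in siC and 73.9, 73.0 and 84.1 FPKM in siMSI1. Both groups had their highest value in library 3, and they did not overlap. EIF3G rose to 137% of the siC mean (limma, 0.46, SE 0.0826, adjusted p = 0.00682), and the call was kept without siMSI1 3, while without any other library in turn the adjusted p was 0.0118 to 0.0378, and with each library centred on its median it was 0.0101.

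EIF3L, a further subunit of eIF3 (ENSG00000100129, chr22:37848868-37889407, plus strand), stood at 14.2, 15.2 and 15.5 FPKM in siC and 19.0, 19.2 and 20.1 FPKM in siMSI1. The groups were narrow and separate, and EIF3L rose to 130% of the siC mean (limma, 0.38, SE 0.0655, adjusted p = 0.00592). The call was lost without any of the 6 libraries in turn (adjusted p 0.0109 to 0.0375). EIF3L shares 41.1% of its exonic bases with the gene AL022311.1 on the same strand, which was at 0.0526 FPKM in siC and 0.0699 FPKM in siMSI1, so a part of its reads may not have been counted.

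Of the other eIF3 genes, EIF3E had 12.4, 14.3 and 13.0 FPKM in siC and 17.3, 18.6 and 15.9 FPKM in siMSI1 (limma, 0.38, SE 0.0846, adjusted p = 0.0153). EIF3C, EIF3F, EIF3H and EIF3I had log2 fold changes of 0.24 to 0.36 with adjusted p of 0.0333 to 0.0498, and their groups did not overlap. EIF3C and the near-identical copy EIF3CL (log2 fold change 0.13) compete for the same reads, and the split between them is uncertain. The large subunits EIF3A (-0.09) and EIF3B (-0.03) overlapped between the groups, as did EIF3J, EIF3K and EIF3M. EIF3D, a subunit that can itself bind the cap, was lower in every siMSI1 library without passing (-0.12, adjusted p = 0.226).

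The 2 largest decreases among all factors were in the eIF4F group, of which 11 of 12 genes were tested. Of these, 2 were lower and 1 was higher, beside 5.83% and 5.15% of all tested genes. Besides eIF4F and its helper proteins the group holds EIF4A3 (-0.04), which is not a subunit of eIF4F. EIF4G2 encodes DAP5, a relative of eIF4G that lacks the eIF4E-binding part and serves cap-independent and alternative initiation (ENSG00000110321, chr11:10797050-10808940, minus strand). It stood at 88.3, 89.0 and 81.3 FPKM in siC and 57.0, 55.9 and 53.2 FPKM in siMSI1. The groups were far apart, and EIF4G2 fell to 64.3% of the siC mean (limma, -0.64, SE 0.0656, adjusted p = 0.000727). It was called without each of the 6 libraries in turn.

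EIF4A2, the eIF4A paralog linked to repression by microRNAs and to the CCR4-NOT complex (ENSG00000156976, chr3:186783205-186789897, plus strand), stood at 77.7, 83.0 and 71.9 FPKM in siC and 50.9, 55.1 and 43.8 FPKM in siMSI1. Its spread within groups was wider than that of EIF4G2, and the groups still did not overlap. It fell to 64.4% of the siC mean (limma, -0.64, SE 0.0979, adjusted p = 0.00354), a call that was lost without siC 1, siC 2 or siMSI1 1 (adjusted p 0.0193, 0.0142 and 0.0123). Small nucleolar RNA genes and 1 microRNA gene lie within EIF4A2 and share 10.5% of its exonic bases, and none of those that share exonic bases had a read. The antisense gene AC112907.3 overlaps 7.1% of the exonic bases and had reads (1.81 FPKM in siC and 1.12 FPKM in siMSI1 on average, limma, -0.66, adjusted p = 0.0443, not past the threshold), and its reads may not be separable from those of EIF4A2.

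EIF4B, which stimulates the helicase activity of eIF4A (ENSG00000063046, chr12:53006282-53042215, plus strand), stood at 89.6, 88.3 and 85.1 FPKM in siC and 105.6, 112.7 and 107.7 FPKM in siMSI1. The groups did not overlap and EIF4B rose to 124% of the siC mean (limma, 0.31, SE 0.0606, adjusted p = 0.00944), the smallest change past the threshold. The call was lost without each of the 6 libraries in turn (adjusted p 0.0117 to 0.0446) and when libraries were centred on their medians (0.0109) or quantile normalized (0.0112). The antisense gene AC068888.1 overlaps 12.4% of the exonic bases of EIF4B and moved the same way (5.15 to 7.31 FPKM on average, limma, 0.49, adjusted p = 0.00503). The library preparation kept strand, but whether the counting used it is not given in the sources used here, so reads of this pair may not be separable.

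**Figure D3:**
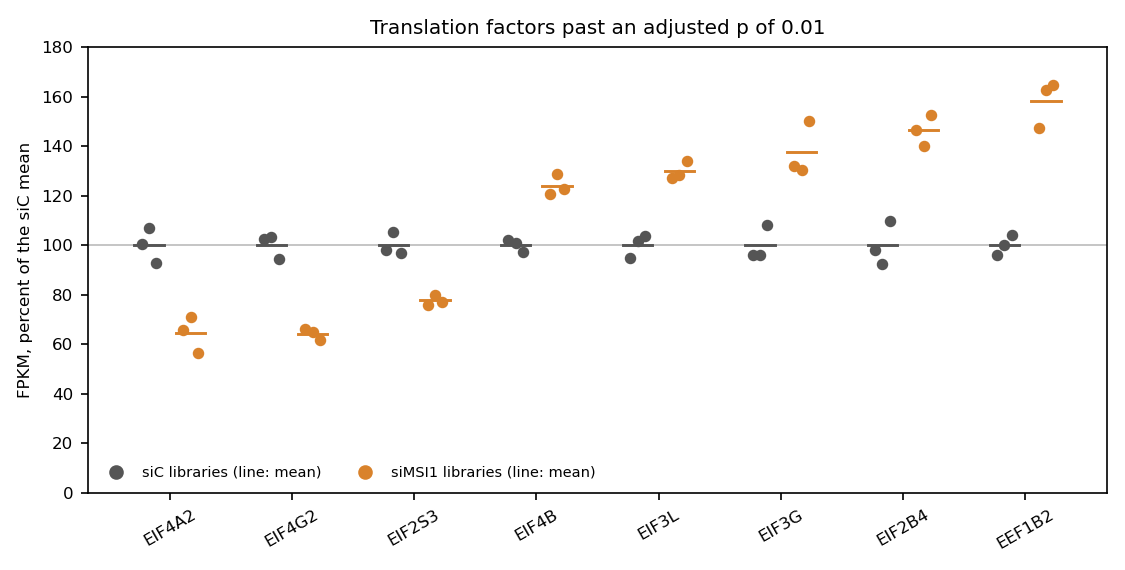
FPKM of the 8 factors past the threshold in each library, as a percent of the siC mean, with lines for the group means. The siMSI1 libraries of EIF4A2, EIF4G2 and EIF2S3 lie below all siC libraries, with means of 64.4%, 64.3% and 77.7%, and those of EIF4B, EIF3L, EIF3G, EIF2B4 and EEF1B2 lie above them, with means of 124% to 158%.

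The remaining genes of the eIF4F group did not pass. The scaffold EIF4G1 was at 135.2, 125.5 and 133.0 FPKM in siC and 108.9, 109.2 and 125.5 FPKM in siMSI1, so that the groups just touched (limma, -0.20, SE 0.077, adjusted p = 0.0985). The less abundant EIF4G3 was at 7.47, 8.16 and 7.09 FPKM and at 9.28, 9.42 and 8.69 FPKM (0.27, adjusted p = 0.0459). EIF4H, a relative of EIF4B in function, was at 240.0, 238.8 and 249.6 FPKM and at 259.8, 283.5 and 287.8 FPKM, without overlap (0.19, adjusted p = 0.0741). The cap-binding protein EIF4E, the limiting subunit of eIF4F in many cells, was at 3.84, 4.54 and 3.84 FPKM in siC and 4.25, 4.24 and 3.44 FPKM in siMSI1 (-0.04, SE 0.12), and 10.3% to 12.7% of the reads on EIF4E and its pseudogenes together fell on the pseudogenes. Its relatives were EIF4E2 at 19.6, 19.0 and 19.1 FPKM against 19.9, 23.2 and 21.3 FPKM (0.16, adjusted p = 0.158) and EIF4E3 at 0.669, 0.590 and 0.619 FPKM against 0.705, 0.701 and 0.633 FPKM (0.10, SE 0.236).

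None of the 4 poly(A)-binding proteins and partners passed. PABPC1, the main cytoplasmic poly(A)-binding protein, stood at 81.9, 79.6 and 77.3 FPKM in siC and 89.9, 86.9 and 92.0 FPKM in siMSI1, without overlap (limma, 0.17, SE 0.0598, adjusted p = 0.0724). PAIP1, which helps PABPC1 stimulate translation, stood at 48.5, 53.1 and 48.7 FPKM in siC and 43.9, 45.2 and 37.5 FPKM in siMSI1, also without overlap and in the other direction (-0.25, SE 0.0865, adjusted p = 0.0695). PAIP2, the inhibitor that displaces PABPC1 from poly(A), had 27.6, 30 and 27.7 FPKM and 31.7, 34.1 and 28.7 FPKM (0.14, adjusted p = 0.229), with overlap. PABPC4 was at 36.4, 36.0 and 38.2 FPKM and at 35.0, 35.0 and 37.1 FPKM (-0.05, SE 0.0614).

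Nor did any of the inhibitors and regulators. EIF4EBP2, a repressor that holds EIF4E away from EIF4G1, was at 16.1, 15.7 and 15.1 FPKM in siC and 13.2, 12.8 and 13.8 FPKM in siMSI1, without overlap (limma, -0.24, SE 0.0652, adjusted p = 0.0338). EIF4EBP1, the better known repressor of the family, was at 43.9, 38.6 and 44.9 FPKM and at 42.6, 44.1 and 57.0 FPKM, and its higher siMSI1 mean rests on siMSI1 3 (0.16, SE 0.12, adjusted p = 0.359, and 0.03 without that library). The eEF2 kinase EEF2K (-0.02) and the EIF4E transporter EIF4ENIF1 (-0.13) overlapped between groups.

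Among the elongation factors, 9 of 10 were tested, 1 was higher and none was lower, with a median log2 fold change of 0.17. EEF1B2, the exchange factor that recharges eEF1A with GTP (ENSG00000114942, chr2:206159585-206162928, plus strand), stood at 163.3, 170.4 and 177.6 FPKM in siC and 251.2, 276.8 and 280.6 FPKM in siMSI1. The groups were far apart, and EEF1B2 rose to 158% of the siC mean (limma, 0.66, SE 0.071, adjusted p = 0.000864), the largest increase of all factors. It was called without each of the 6 libraries in turn. Its processed pseudogene EEF1B2P3 moved with it (20.1 to 32.0 FPKM on average, 0.67, adjusted p = 0.00122). The pseudogenes took 3.78% to 4.52% of the summed reads in siC and 3.97% to 4.35% in siMSI1. EEF1B2 shares 16.4% of its exonic bases on the same strand with uc_338.27 and SNORA41, which had no read. A part of the reads of EEF1B2 may thus not have been counted.

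EEF1A1, the main form of eEF1A, stood at 1396, 1456 and 1382 FPKM in siC and 1625, 1767 and 1656 FPKM in siMSI1. The groups did not overlap, but EEF1A1 did not pass the threshold (limma, 0.25, SE 0.0667, adjusted p = 0.0287). With voom on the recovered reads it did (adjusted p = 0.00797), while after quantile normalization the adjusted p was 0.478. Of the gene reads of a library, 0.818% to 0.869% fell on EEF1A1 in siC and 0.962% to 1.05% in siMSI1. Its pseudogene EEF1A1P5 was itself listed at 440.0 FPKM in siC and 543.8 FPKM in siMSI1, and the pseudogenes took 7.17% to 7.55% of the summed reads of the family in siC and 7.48% to 7.95% in siMSI1.

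All members together took 2.24% ± 0.0118 of the gene reads in siC and 2.42% ± 0.037 in siMSI1 (mean ± SD, n = 3 each), higher in each siMSI1 library than in any siC library. The exact two-sided permutation test gave p = 0.1, the smallest value that 3 against 3 libraries allow. Most of this difference was in EEF1A1: without it the members took 1.38% to 1.41% of the reads in siC and 1.39% to 1.46% in siMSI1, and the groups overlapped. EEF1A2, the form of muscle and neurons, was at 1.36, 1.49 and 0.728 FPKM against 0.778, 1.03 and 1.04 FPKM (limma, -0.26, SE 0.279).

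EEF2, the translocase, stood at 678.8, 621.7 and 703.4 FPKM in siC and 606.0, 606.5 and 749.9 FPKM in siMSI1, with overlapping groups (limma, -0.04, SE 0.101, adjusted p = 0.83). EIF5A was at 449.3, 417.4 and 476.2 FPKM and at 466.1, 483.5 and 564.6 FPKM (0.17, adjusted p = 0.218), and its paralog EIF5A2 at 1.65, 1.57 and 1.34 FPKM and 1.84, 1.88 and 1.81 FPKM (0.27, adjusted p = 0.183). EEF1D, the partner of EEF1B2 in the exchange complex, had 14.3, 12.8 and 14.2 FPKM in siC and 15.7, 16.8 and 18.0 FPKM in siMSI1, without overlap (0.29, adjusted p = 0.0346). None of the 3 methyltransferases of eEF1A passed, and EEF1AKMT3 was lower in every siMSI1 library (-0.34, adjusted p = 0.0297).

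A list of 10 factors known to be encoded by TOP mRNAs was written from general knowledge, with earlier results of these data known. It held EEF1A1, EEF1B2, EEF1D, EEF1G, EEF2, EIF3E, EIF3F, EIF3H, EIF4B and PABPC1. The list may leave out further TOP mRNAs, and its counts depend on which factors it holds. Of the 9 that could be tested 2 were higher (EEF1B2 and EIF4B) and none was lower, beside 5.15% and 5.83% of all tested genes. The median log2 fold change was 0.29. In 8 of the 9 all siMSI1 libraries lay above all siC libraries, beside 21.4% of all tested genes, and EEF2 was the exception. The median of the list was 0.30 with each library centred on its median and 0.28 after quantile normalization, with 1 higher call in each, and 0.29 with voom on the recovered reads, with 4 higher calls. The 53 tested members that are not on the list had 3 lower and 3 higher calls and a median of -0.02. The cytosolic ribosomal proteins, the classical TOP genes, had 4 higher and no lower calls among 78 tested, or 5.13%, beside 5.15% of all tested genes called higher. Their median was 0.20, and 40 lay above and 3 below without overlap.

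**Figure D4:**
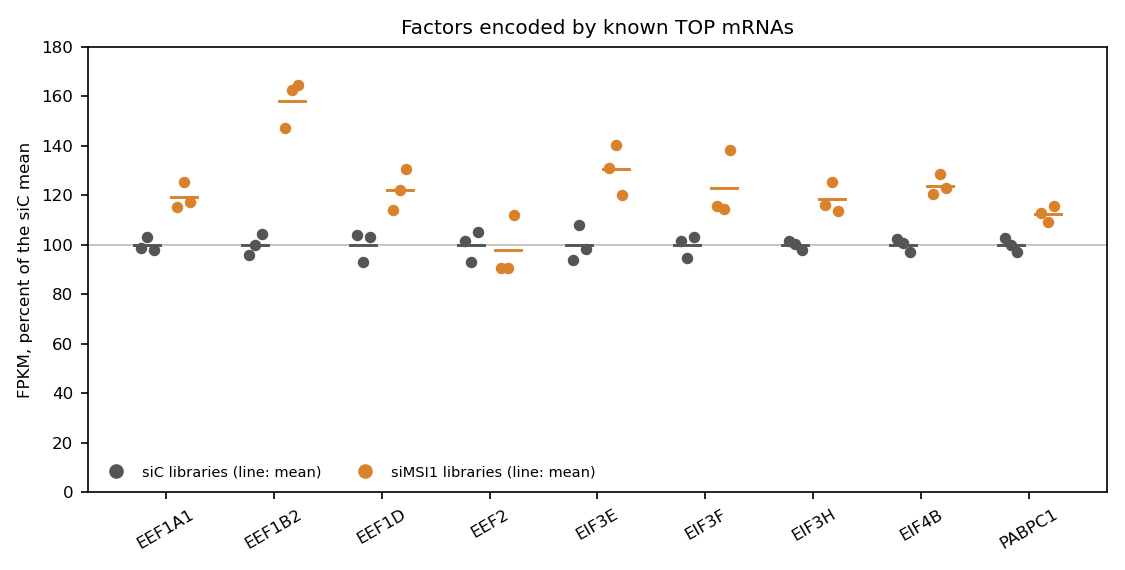
FPKM of the 9 tested factors on the list of TOP mRNAs in each library, as a percent of the siC mean, with lines for the group means. In 8 of them the siMSI1 libraries lie above all siC libraries, with EEF1B2 at a mean of 158% and the other 7 at 113% to 130%, while EEF2 overlaps at 97.9%.

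Starts with a tract occurred on factors of both directions. A tract as defined for the printed starts was found in 5.14% of the 27305 genes with a RefSeq promoter, in 7.59% of the 9016 tested protein-coding genes with one, in 73.0% of 63 tested ribosomal proteins and in 25% of the 48 tested members with one. Of these 12 members, EEF1B2 and EIF4B were called higher, and EIF2S3 and EIF4A2 were called lower. Of the 36 members without a tract, 1 was called higher and 1 lower. Of all tested genes, 5.15% were called higher and 5.83% lower. The groups did not overlap in 4 of the 12 in each direction. Among the 36, 8 were higher and 6 lower without overlap, beside 21.4% and 21.5% of all tested genes. The median log2 fold change was 0.01 with a tract and -0.01 without one. Whether calls go with a tract was not tested. The other 14 tested members, with no entry in the promoter table, were not scanned. They include EIF3G and EIF3L, both called higher, and 4 factors of the TOP list (EEF1D, EIF3E, EIF3H and PABPC1). Without overlap, 7 of the 14 were higher and 1 was lower, beside 21.4% and 21.5% of all tested genes. The even split thus holds for the scanned members alone. As the printed starts show, EIF4A2 and EIF2S3 open with CTTTTC and CTCTTTT, which are close to the CTTTTTC of EEF1A1. A match describes letters at an annotated start and is not a shown TOP mRNA.

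Since MSI1 binds RNA at short words that include GUAG, the word was counted on the transcript strand of the longest annotated 3′UTR of each gene (GENCODE 44). The median over tested protein-coding genes was 2.38 words per kb (n = 11281), and 83.1% held at least 1. The tested members had a median of 2.63 per kb, and 72.6% held 1. EIF2S3 had 5.43 per kb in 2025 bases, EIF4A2 had 4.78 in 628 bases and EIF4G2 had 2.61 in 766 bases. Of the factors called higher, EIF3L had 6.36 per kb in 943 bases and EIF4B had 5.02 in 1992 bases, while EEF1B2, EIF2B4 and EIF3G had none in 3′UTRs of 45, 48 and 100 bases. High densities thus occurred in both directions. The median was 4.777 per kb for the 3 factors called lower and 0 for the 5 called higher. The 3′UTRs of EEF1B2, EIF2B4 and EIF3G leave little room for a word, so their zeros say little. Of the tested protein-coding genes, 88.7% of the 802 called lower and 79.7% of the 676 called higher held the word. Their median densities were 2.387 and 2.096 per kb, with median 3′UTR lengths of 1705.5 and 1301.5 bases. Whether the word goes with the direction was not tested. A word is not a binding site, and binding was not measured in these libraries.

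Ratios of related factors were formed within each library, which removes its scaling. The level of a ratio depends on the lengths given for both genes, while its difference between the groups does not. Of 12 pairs, 6 did not overlap between the groups, beside 42.8% of all tested genes taken singly. No ratios of other genes were formed for comparison. Each of the 6 pairs had p = 0.1 in an exact two-sided permutation test, the smallest that the design allows (0.2 after Benjamini-Hochberg adjustment over the 12 pairs). EIF4G2 relative to EIF4G1 went from 0.657 to 0.485 (difference of the log2 ratio, siMSI1 minus siC, -0.44), while EIF4G3 relative to EIF4G1 went from 0.0577 to 0.0798 (0.47). The ratio of the inhibitor PAIP2 to the activator PAIP1 went from 0.568 to 0.747 (0.40), and its 3 siC values agreed closely (SD 0.0059 on the log2 scale).

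EIF4EBP2 relative to EIF4EBP1 went from 0.370 to 0.280 (-0.40), PABPC4 relative to PABPC1 from 0.463 to 0.398 (-0.22) and EIF4H relative to EIF4B from 2.77 to 2.55 (-0.12). The ratios of EIF4E2 and EIF4E3 to EIF4E, EIF1B to EIF1, EIF5A2 to EIF5A, EEF1A2 to EEF1A1 and EIF4A2 to EIF4A1 overlapped, the last resting on the few reads of EIF4A1.

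**Figure D5:**
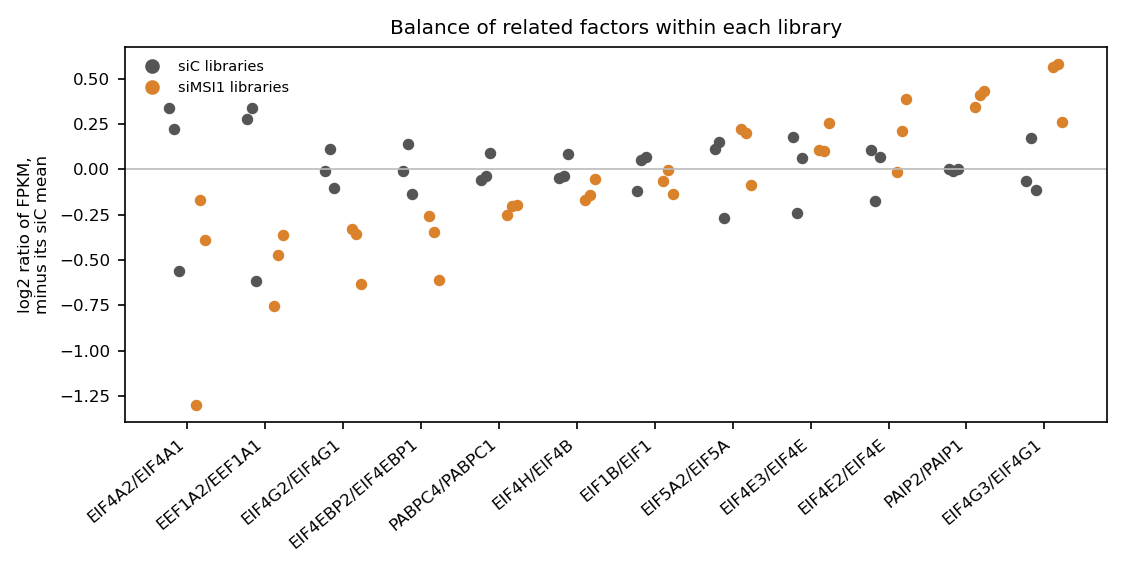
Log2 ratio of the FPKM of related factors within each library, minus the mean of the siC libraries, for 12 pairs ordered by their difference. The siMSI1 libraries (orange) are apart from the siC libraries (grey) in 6 pairs: below them for EIF4G2/EIF4G1, EIF4EBP2/EIF4EBP1, PABPC4/PABPC1 and EIF4H/EIF4B, and above them for PAIP2/PAIP1 and EIF4G3/EIF4G1.

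Other genes of the translation machinery that the rule leaves out were read from the same fit. Of 85 such genes in 7 lists, 82 were tested, 3 were lower and 2 were higher, or 6.1%, beside the 11.0% of all genes. EIF2AK3, the kinase PERK that phosphorylates EIF2S1 under stress of the endoplasmic reticulum, stood at 20.8, 20.6 and 19.6 FPKM in siC and 12.2, 12.7 and 11.9 FPKM in siMSI1, without overlap (limma, -0.72, SE 0.0638, adjusted p = 0.000477). The kinases EIF2AK1, EIF2AK2 and EIF2AK4 did not pass. Of the 7 genes listed as eIF2 kinases and phosphatase, 3 lay below siC and 1 above it without overlap. The other 2 called lower were on a list of 16 further poly(A)-binding and cap-associated proteins, of which 13 were tested. Of these 13, 7 lay below siC and 1 above it without overlap, beside 21.5% and 21.4% of all tested genes. NCBP2, the cap-binding subunit of the nuclear cap-binding complex, was at 22.8, 24.7 and 22.4 FPKM in siC and 14.2, 16.0 and 13.8 FPKM in siMSI1 (-0.67, adjusted p = 0.00132), and CTIF, which links that complex to eIF3, at 3.74, 3.64 and 3.90 FPKM and 2.05, 2.14 and 1.98 FPKM (-0.84, adjusted p = 0.00114).

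The 2 called higher were on a list of 11 genes for modification of eEF2, eIF5A and eEF1A. Of these 11, 7 lay above siC and 1 below it without overlap, beside 21.4% and 21.5% of all tested genes. DPH5, an enzyme of diphthamide synthesis on eEF2, was at 3.37, 4.17 and 3.96 FPKM in siC and 5.96, 6.09 and 6.40 FPKM in siMSI1 (limma, 0.67, adjusted p = 0.00321). DOHH, which completes hypusine on eIF5A, was at 18.6, 17.7 and 20.03 FPKM and 25.6, 26.7 and 31.3 FPKM (0.56, adjusted p = 0.00453). The gene below siC was DHPS, also of hypusine synthesis (37.4 FPKM in siC and 29.0 FPKM in siMSI1 on average, -0.37, adjusted p = 0.0147, not past the threshold). None of 8 termination and recycling factors, 13 genes of mTORC1 and eIF4F signalling, 8 mitochondrial and selenocysteine factors or 22 cytosolic aminoacyl-tRNA synthetases was called. Of the 22 synthetases, 6 lay above siC and 2 below it without overlap. Above siC without overlap were also 3 mitochondrial and selenocysteine factors and 1 termination and recycling factor, and none of either list lay below. Of the 13 genes of mTORC1 and eIF4F signalling, 6 lay above siC and 1 below it without overlap, beside 21.4% and 21.5% of all tested genes. LARP1, a regulator of TOP mRNAs, was 1 of those above (0.27, adjusted p = 0.0133, not past the threshold).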

How the data were processed

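Strand-specific mRNA-seq libraries of KNS42 cells (3 siC, 3 siMSI1, 72 h) were grouped by their sample labels. The authors clipped reads with cutadapt 1.14, aligned them to hg38 with HISAT2 2.1.0 and SAMtools 1.5, counted them with featureCounts 1.5.3 on an Ensembl annotation, and deposited FPKM per gene and library. Columns with the authors' own edgeR 3.18.1 comparison (log2 fold change, p-value and FDR) were not used. Whole reads were recovered from the FPKM for 100% of values (tolerance 0.001 reads).

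limma 3.58.1 in R 4.3.3 (lmFit, eBayes with trend and robust) was fitted to log2(FPKM + 0.1), using the 15069 genes that averaged at least 0.5 FPKM. Fold changes are on that scale, which understates changes of low genes. Adjustment of p-values was by Benjamini-Hochberg across every tested gene, and the threshold was 0.01, that of the study. The script was tested on simulated data. Named in full were the factors past the threshold, the 5 most abundant, the paralog pairs, PAIP1 and PAIP2, and the pathway genes past the threshold. Others were added to close a role group after their values were seen. The same holds for pathway genes not past the threshold, such as LARP1 and DHPS. The members and lists were chosen with earlier results of these data known. Alternatives covered the pseudocount, filter, scaling, variance moderation, voom on recovered reads, a replicate block, the threshold and each library left out. Promoter sequences were from RefSeq (GRCh38.p14), where 48 of 62 tested members matched. Gene positions and 3′UTRs were from GENCODE 44. Tables, permutation tests and plots were made in Python 3.11.15 (pandas 2.3.3, SciPy 1.17.1, matplotlib 3.10.9). The sequencing depth of 13087025 to 18024080 gene reads limits genes near 3 reads (0.0829 to 0.114 FPKM at 2 kb).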

Additional observations from a re-analysis of the deposited data

How the results depend on the processing

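The number of factors called (8) and of all genes called (1655) moved with the filter, the variance model and the test. Without a filter on low genes 2 factors and 792 genes were called, with eBayes without trend and robust 2 and 847, with voom on the recovered reads 13 and 2815, and at an adjusted p of 0.05 21 and 3787. Leaving out each library in turn gave 2 to 8 factors and 517 to 1603 genes: 2 factors without siC 1, siC 2 or siMSI1 1, 4 without siC 3 or siMSI1 2, and 8 without siMSI1 3. Of the 8 called without siMSI1 3, 6 were called in the main fit, and 4 were lower and 4 higher. Each fit with a library left out also had fewer libraries, and the cause of the differences was not tested. Centred libraries gave 6 factors and quantile normalization 7. EIF4G2 and EEF1B2 were called in all 16 alternatives with a p per factor, EIF4A2 and EIF2B4 in 11, EIF2S3 in 9, EIF3G and EIF3L in 8 and EIF4B in 6, and none of the 8 changed direction. The median over the factors ranged from -0.0017 (without siC 1) to 0.0417 (without siC 2) on the log2 scale.

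Whether the replicate numbers pair the libraries is not given by the labels and was not settled. Over all tested genes, the deviations of same-numbered libraries from their group means correlated at -0.0661, 0.0783 and 0.083. Those of differently numbered libraries correlated at -0.1437 to 0.07. With the number as a block 11 factors and 2250 genes were called, and with the block and voom 27 and 4974. The block lowered the SE of each factor called in the main fit, as for EIF4A2 from 0.0979 to 0.0497. An effect shared by same-numbered libraries is thus possible for the factors.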
